A study of Xenopus tropicalis with 26 samples.

Results

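High K+ embryos were compared with control embryos of *Xenopus tropicalis* at 0.5, 1 and 1.5 h after stage 8, while both were blastulae. The 6 samples, 3 of high K+ and 3 of control, were all those of the time course taken at these times, out of 26. They were paired by time point. All 34192 genes in the table were members, and the 13838 with a mean abundance of at least 1 over the 6 samples were tested. The high K+ embryos were kept in 10 mM KCl solution at 25 °C and the control embryos in dilute modified Ringer's solution (1/9x MR) at 25 °C. All embryos came from in vitro fertilization and were raised in 1/9x MR. Each sample was polyadenylated RNA from 10 whole embryos. Neither the strain nor the time at which the medium was changed is given in the labels. The general methods of the study name the N (Nigerian) strain and start treatments during gastrulation at stage 8. They also give another KCl concentration.

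The study asked which genes respond when the blastula is depolarized by raising K+ outside the cells. Each condition was followed in 1 time course sampled every 30 min. There were thus no biological replicates, and every SE and p-value below measures the spread between time points.

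Membrane potential depends mainly on the K+ gradient, so more K+ outside brings it towards zero and can open voltage-gated calcium channels. The frog blastula lives on maternal RNA until the mid-blastula transition, when zygotic transcription begins, the cell cycle lengthens and maternal RNA starts to be cleared. Its cells are pluripotent under factors of the Pou5f3, Sox and Ventx families, and Nodal, BMP, Wnt and FGF signals then divide them into germ layers.

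The values are abundances per gene, on a TPM-derived scale that accounts for transcript length. Read counts cannot be had from them, so neither depth nor counting error can be stated for any sample. Differences are log2(high K+ abundance + 1) minus log2(control abundance + 1) at the same time point. In whole embryos, fewer cells of a type and less RNA per cell cannot be told apart. All 8 maternal and 5 zygotic blastula markers were present. *pou5f3.2*, counted among the zygotic markers, was already at 353 in high K+ and 314 in control at 0 h. The summed maternal markers were between 4129 and 6058 in high K+ and between 2575 and 3147 in control, and the summed zygotic markers between 582.6 and 2748 in high K+ and between 458.9 and 1492 in control. The 4 markers of blood, 3 of ovarian follicle and 1 of testis that had a value were under 1 in all 6 samples, as were 5 of 6 markers of later tissues.

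The median difference over all tested genes was 0.00 at 0.5 h, 0.05 at 1 h and 0.52 at 1.5 h. At 1.5 h, 12193 genes were higher in high K+ and 1538 lower, whereas at 0.5 h the numbers were 6871 and 6754. The level of 43 spike-in RNAs also differed, by 0.10, 0.68 and 0.49 at the 3 times (high K+ minus control, log2). Scaling each sample to its spike-in RNAs moved the median over genes of the mean difference to -0.22, against 0.20 as deposited. Directions are therefore given below as relative differences, which subtract the median of that time point, and the spike-in-scaled value is added for each gene group.

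The 1 h pair stood apart. The SD of differences over genes was 1.08 at 1 h, compared with 0.80 at 0.5 h, 0.77 at 1.5 h and 0.64 at 0 h. Across genes, the high K+ sample of 1 h had a rank correlation of 0.911 with its own control sample but 0.936 with the control of 1.5 h and 0.935 with that of 0 h. The matched pairs of 0.5 and 1.5 h stood at 0.963 and 0.962. Within the control course, the samples of 0.5 and 1 h were the closest neighbours (0.967). In the test over the whole course, described below, the counts of called genes rest largely on this pair. As deposited they were 28 higher and 6 lower without it, against 2467 and 323 with it. In the test of the compared samples alone they were 122 and 78 without it, against 138 and 87. There they fell most without the 1.5 h pair, to 2 and 1. Values without the 1 h pair are given beside the main gene groups.

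**Figure D1:**
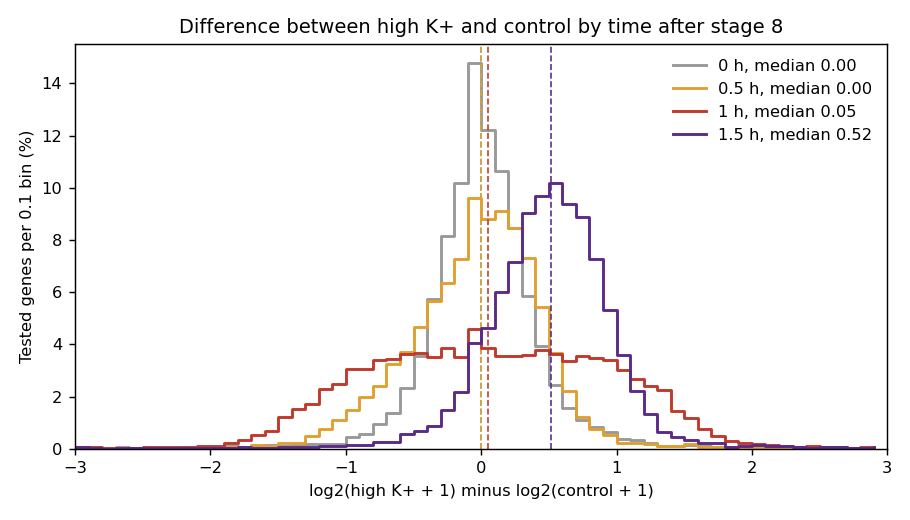
Percent of tested genes in bins of 0.1 (vertical axis) by log2 difference, high K+ minus control (horizontal axis), at 0, 0.5, 1 and 1.5 h, with a dashed line at the median of each time. The distribution at 1 h is the broadest (SD 1.08) around a median of 0.05, and that at 1.5 h is shifted to a median of 0.52.

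With the 6 samples alone, 138 genes rose in high K+ (0.997% of those tested) and 87 fell (0.629%) at a limma adjusted p under 0.05. In this fit limma assigned every gene the same SE, 0.47, so the calls follow the size of the mean difference. Most of these genes have no name. Of the 138, 8 had a symbol, 49 a LOC identifier and 81 neither. Of the 87, only *tubb4a* had a symbol. Many were listed at 0 throughout a condition, 49 of the genes that rose in all control samples and 42 of those that fell in all high K+ samples. Differences had the same direction at all 3 time points in 73 and 29 of them. With each pair scaled to a median ratio of 1, 4 genes rose (0.0289%) and 3 fell (0.0217%), none with a symbol.

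The named genes that rose in the 6-sample test and were higher at all 3 time points were *eif4e3*, *bop1*, *efnb3*, *c3ar1* and *esr-5*. The abundance of *eif4e3* (gene26452), a cap-binding protein of the eIF4E family, was 3524, 5673 and 3250 at 0.5, 1 and 1.5 h in high K+, against 1568, 1164 and 878 in control. Every high K+ sample was above every control sample, and the mean difference was 1.78 ± 0.47 (SE, 3 pairs, adjusted p = 0.014). Overlap is described here and below for single genes, and the share of all tested genes without overlap is not given. It was judged on the values as deposited, although the levels of whole samples differed. Overlap after scaling was not examined, so these statements are only a description. *eif4e3* was already higher in high K+ at 0 h, 5109 against 2288.

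*bop1* (gene30283), needed to build the large ribosomal subunit, was 105, 204 and 117 in high K+, against 45.2, 37.7 and 44.2 in control, a mean difference of 1.66 ± 0.47 (adjusted p = 0.0297). *efnb3* (gene30986), an ephrin ligand, was 5.86, 16.9 and 9.12 in high K+, against 2.29, 2.45 and 2.09 in control, a mean difference of 1.72 ± 0.47 (adjusted p = 0.0217). Neither gene overlapped between the conditions. At 0 h the log2 difference was already 0.86 for *bop1* and 0.47 for *efnb3*. *c3ar1* (gene6495), a complement receptor, differed mainly at the last time, with 1.52, 5.63 and 90.4 in high K+, against 0.96, 1.88 and 7.72 in control, and its groups overlapped.

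For *esr-5* (gene24889), of the Hairy and Enhancer of split family, 1 control sample made the call. It had 22.2, 74.6 and 41.9 in high K+, against 18.5, 0 and 36.5 in control. Without 1 h its relative difference was -0.04. This gene belongs to a multigene family, and reads may be split unevenly among its members.

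The other called genes with a symbol did not keep 1 direction and have partners under the same or a similar name. The called entry of *gtpbp2* (gene26654) had 3.96, 62.3 and 0 in high K+ and 0 in every control sample, whereas the other entry of that symbol (gene27041) had 5361, 9396 and 4956 in high K+, against 3769, 3179 and 3002 in control. The called *ncaph* entry (gene29482), for a condensin subunit, had 11.7, 0 and 16.5 in high K+ and 0 in every control sample. Its other entry (gene26173) was 51.0, 64.4 and 70.2 in high K+, against 96.2, 103 and 61.0 in control, so the entries differed in opposite directions. The tubulin genes *tuba1a* and *tubb4a* were likewise at or near 0 in several samples and between 17.5 and 60.7 in others. How the reads of near-identical genes were divided among entries was not tested.

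A further test took the spread between time points from the whole course. In this 12-time-point test, the 4 windows of 3 time points between 0.5 and 6 h were fitted together, and the difference of the earliest window was tested. As deposited, 2467 genes were higher (17.8% of those tested) and 323 lower (2.33%). With each pair at a median ratio of 1, a setting added after the data were seen, 1869 were higher (13.5%) and 1974 lower (14.3%), so the split between directions depended on the scaling. At the spike-in level, also added, 9 were higher (0.065%) and 11 lower (0.0795%), and none of these had a symbol. Without the 1 h pair, the median-ratio test called 49 genes higher (0.354%) and 61 lower (0.441%). At shares this low a list as short as most of those below would often hold no called gene. The absence of one without 1 h therefore says little about a list. The p-values below come from the median-ratio test unless stated otherwise, and genes outside the fixed rule were chosen after their values were seen.

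By direction alone, 5041 genes were higher at all 3 time points (36.4%) and 921 lower (6.66%) as deposited, while 4048 genes were above the median difference at all 3 time points (29.3%) and 3991 below it (28.8%). The median relative difference of the genes called higher was 0.46 at 0.5 h, 1.07 at 1 h and 0.46 at 1.5 h. Among those called lower it was -0.63, -1.06 and -0.45. Both sets were chosen on these same differences, so their displacement is only a description. It was largest at 1 h.

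A small group of genes passed the median-ratio test both with and without the 1 h pair, 48 higher and 55 lower in high K+. Of these, 22 and 25 had a symbol. Those named here were chosen after their values were seen.

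*srsf4* (gene2113), an SR protein of the splicing machinery, had 3814, 5211 and 5232 in high K+, against 2087, 1462 and 1726 in control. The high K+ values all exceeded the control values, and the relative difference was 1.24 ± 0.16 (SE, adjusted p = 0.00596, and 0.021 without 1 h). At 0 h the difference was 0.44. *hnrnpm* (gene22760), another splicing regulator, had 826, 879 and 1005 in high K+, against 369, 503 and 449 in control (relative difference 0.85 ± 0.13, adjusted p = 0.00892). *pabpn1* (gene5206), the nuclear poly(A)-binding protein, had 766, 921 and 1053 in high K+, against 433, 401 and 435 in control (relative difference 0.91 ± 0.13, adjusted p = 0.00685). Neither overlapped between conditions, and without 1 h both kept an adjusted p near 0.043 (0.0425 for *hnrnpm* and 0.0427 for *pabpn1*).

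*slc2a1* (gene30367), the glucose transporter GLUT1, had 73.2, 118 and 106 in high K+, against 38.3, 31.3 and 36.4 in control. Its lowest high K+ value was well above its highest control value, with a relative difference of 1.25 ± 0.17 (adjusted p = 0.00674, and 0.0251 without 1 h), and it was also higher at 0 h, by 0.91. *bsg* (gene24087), basigin, a partner of lactate transporters, had 1678, 1976 and 2342 in high K+, against 969, 926 and 928 in control. The glycolytic enzyme gene *pgam1* (gene2184) had 335, 229 and 314 in high K+, against 199, 168 and 139 in control. Neither overlapped. The relative difference was 0.88 ± 0.12 for *bsg* (adjusted p = 0.00685) and 0.60 ± 0.12 for *pgam1* (adjusted p = 0.0121).

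*srp9* (gene22474), of the signal recognition particle, had 1534, 1873 and 2098 in high K+, against 736, 725 and 811 in control (relative difference 1.08 ± 0.14, adjusted p = 0.00596). The proton pump subunit gene *atp6v0b* (gene5046) had 204, 169 and 248 in high K+, against 121, 107 and 97.8 in control. The samples of the conditions did not overlap for either gene.

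Genes lower in high K+ with and without 1 h included *h3f3a* (gene20929), which encodes the replacement histone H3.3. It had 305, 270 and 445 in high K+, against 540, 575 and 584 in control, a relative difference of -0.96 ± 0.12 (adjusted p = 0.00559, and 0.0313 without 1 h). Every high K+ value lay below every control value. At 0 h it was also lower, by 0.82 on the log2 scale (270 in high K+ against 477 in control). *rab10* (gene31188), a GTPase of vesicle traffic, had 253.5, 421 and 383.5 in high K+, against 571, 480 and 504 in control, and *ier5l* (gene8127), a relative of an immediate early gene, had 327, 457 and 554 in high K+, against 658, 737 and 708 in control. Neither overlapped, and at 0 h these genes already had log2 differences of -1.16 for *rab10* and -1.27 for *ier5l*.

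*cyr61* (gene8159), a secreted matrix-associated protein, had 6.29, 5.98 and 4.71 in high K+, against 18.4, 13.2 and 5.57 in control (relative difference -1.07 ± 0.14, adjusted p = 0.00586). *slc38a2* (gene731), an amino acid transporter, had 3.77, 2.89 and 2.12 in high K+, against 7.59, 10.6 and 3.48 in control (relative difference -1.17 ± 0.16, adjusted p = 0.00596). In both the high K+ sample was lower at each time, but the conditions overlapped since the control of 1.5 h was low. At 0 h the difference was -0.09 for *cyr61* and -0.05 for *slc38a2*.

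The genes of pluripotency and of maternal endowment were next examined. In the pluripotency list, 9 of 29 tested genes passed as higher and 5 as lower, with a median relative difference of 0.25 and a spike-in-scaled median of 0.02. In the list of maternal factors, 14 of 44 passed as higher and 6 as lower, with a median of 0.22, and here the spike-in-scaled median was -0.01. At 0 h the median relative difference was 0.20 for the maternal list and 0.02 for the pluripotency list. The corresponding share over all genes was 13.5% higher and 14.3% lower. Without the 1 h pair no gene of either list passed. Set against control samples 30 min later, the median difference of the pluripotency list as deposited was -0.16, against 0.44 at matched times. Over all tested genes these medians were 0.26 and 0.20.

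*pou5f3.3* (gene30538), the maternal member of the Pou5f3 genes, had 1718, 2642 and 1757 in high K+, against 1199, 862 and 979 in control. The conditions did not overlap, and the relative difference was 0.80 ± 0.22 (adjusted p = 0.0256, and 0.181 without 1 h). At 0 h the log2 difference was 0.38. The other members also passed, of which *pou5f3.2* was already at 353 in high K+ and 314 in control at 0 h. *pou5f3.2* (gene17476) had 384, 931 and 1163 in high K+, against 294, 319 and 619 in control, and *pou5f3.1* (gene19970) had 21.9, 151 and 318 in high K+, against 14.9, 46.4 and 183 in control. Both increased with time in each condition and were higher in high K+ at each time, so the values overlapped across times. Set against the control sample taken 30 min later, the mean difference of *pou5f3.1* was -0.47, so its direction depended on the time matching. The adjusted p was 0.0215 for *pou5f3.2* (0.128 without 1 h) and 0.025 for *pou5f3.1* (0.159 without 1 h). The 3 genes are close relatives, and reads shared between them cannot be assigned with certainty.

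*foxh1* (gene1949), the maternal partner of Nodal-activated Smads, had 840, 1306 and 638 in high K+, against 530, 391.6 and 317 in control. No overlap was seen, and the relative difference was 0.95 ± 0.21 (adjusted p = 0.0157, and 0.102 without 1 h). *vegt* (gene5966), the maternal T-box factor of the vegetal cells, had 277, 472 and 582 in high K+, against 202, 238 and 219 in control, without overlap (adjusted p = 0.0208, and 0.131 without 1 h). *sox3* (gene1106) had 900, 1053 and 1226 in high K+, against 804, 637 and 728 in control. The groups did not overlap, yet the relative difference of *sox3* was only 0.36 ± 0.13 and missed the threshold (adjusted p = 0.066), whereas as deposited it passed (0.0403). At 0 h *foxh1* was already at 1423 in high K+ against 898 in control, a log2 difference of 0.66. For *vegt* the 0 h difference was 0.47 and for *sox3* it was 0.01.

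*ventx1.2* (gene3667), a homeobox gene that holds cells in an uncommitted ventral state, had 5.00, 28.9 and 130 in high K+, against 2.17, 6.19 and 54.3 in control. It was higher at each matched time, with a relative difference of 1.22 ± 0.25 (adjusted p = 0.0121, and 0.0844 without 1 h), but its mean difference from the control 30 min later was -0.29. From the control 30 min earlier the mean difference of *ventx1.2* was 3.27. *ventx2.1* (gene7852) had 113, 501 and 831 in high K+, against 100, 182 and 497 in control, and did not pass (adjusted p = 0.0691), although it did as deposited (0.0429). Of the lower genes in the maternal list, *h1f0* and *h1foo*, linker histones, had relative differences of -1.12 and -0.57.

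**Figure D2:**
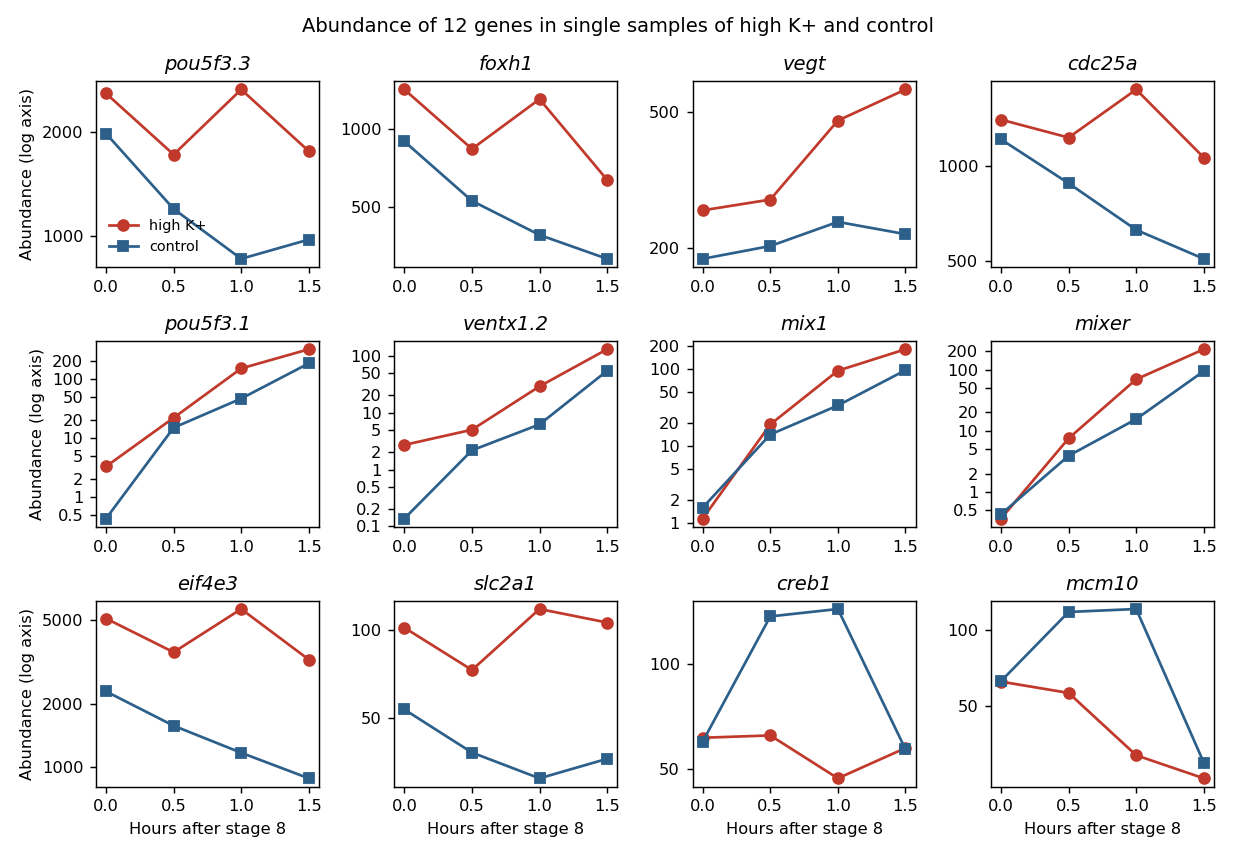
Abundance as deposited (vertical axis, log scale) against hours after stage 8 (horizontal axis, 0 to 1.5 h) for 12 genes, with 1 line for high K+ and 1 for control and 1 sample at each point. In the high K+ line *pou5f3.3* reached 2642 at 1 h against 862 in control, while *creb1* was at 46.9 at 1 h in high K+ against 144 in control and the lines met at 1.5 h.

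Zygotic genes are given by signal. In the list of first zygotic genes 17 of 79 passed as higher and 5 as lower, with a median relative difference of 0.18 and a spike-in-scaled median of -0.05. In the Nodal list 10 of 30 passed as higher and 2 as lower (median 0.27, spike-in-scaled 0.03). In the BMP list 4 of 23 passed as higher and 6 as lower (median -0.07, spike-in-scaled -0.30). Over all tested genes 13.5% were higher and 14.3% lower. No gene of these lists passed without 1 h. Set against control samples 30 min later, the median difference as deposited was -0.36 for the first zygotic genes (0.37 at matched times). It was -0.06 for the Nodal list (0.46) and -0.13 for the BMP list (0.12), so these medians as deposited changed sign. Over all tested genes it was 0.26 (0.20). The relative median of the BMP list was already negative at matched times.

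The endoderm and mesoderm genes downstream of Nodal were among those higher. *mixer* (gene7053) had 7.54, 69.4 and 215 in high K+, against 3.91, 15.6 and 94.5 in control (relative difference 1.17 ± 0.25, adjusted p = 0.0136). *mix1* (gene3655) had 19.2, 95.7 and 182 in high K+, against 14.2, 33.9 and 97.1 in control (relative difference 0.74 ± 0.23, adjusted p = 0.0378). *sox17a* (gene2058) had 8.07, 26.8 and 102 in high K+, against 6.18, 10.3 and 40.8 in control (relative difference 0.79 ± 0.19, adjusted p = 0.0173). Each was higher in high K+ at each matched time, but against the control 30 min later the mean difference was -0.26 for *mix1* and -0.36 for *sox17a*. None passed without 1 h (adjusted p of 0.0933 for *mixer*, 0.287 for *mix1* and 0.128 for *sox17a*).

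The Nodal ligands themselves did not pass. *nodal1* (gene4687) had 0.11, 1.14 and 6.18 in high K+, against 0, 0.57 and 3.97 in control (adjusted p = 0.473), and *nodal5* (gene32743) had 5.64, 5.12 and 6.40 in high K+, against 4.21, 7.83 and 2.85 in control (adjusted p = 0.866). *nodal6* (gene6460) had 16.4, 17.9 and 26.7 in high K+, against 11.9, 16.1 and 13.1 in control (adjusted p = 0.264). The 2 entries named *nodal*, gene20745 and gene417, had an adjusted p of 0.39 and 0.921. *sia1* (gene17982), a dorsal target of maternal Wnt, had 20.2, 53.03 and 44.5 in high K+, against 17.3, 24.7 and 21.8 in control and missed the threshold (adjusted p = 0.0563, and 0.0318 as deposited). *wnt8a* (gene6) also missed it (0.0574).

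Members of the BMP list differed in both directions. *bmp7.2* (gene8150), a ligand, had 112, 85.4 and 205 in high K+, against 209, 311 and 272 in control, with no overlap and a relative difference of -1.24 ± 0.26 (adjusted p = 0.0129). *admp* (gene5807), a BMP-like ligand of the organizer, had 8.38, 19.9 and 39.1 in high K+, against 18.5, 50.1 and 49.3 in control (relative difference -1.08 ± 0.25, adjusted p = 0.0162). The antagonist *chrd* (gene6898), chordin, had 3.46, 27.4 and 74.2 in high K+, against 1.40, 7.37 and 31.8 in control (relative difference 1.095 ± 0.22, adjusted p = 0.0123), while *fst*, follistatin, another antagonist, was lower, with a relative difference of -0.58. None of the first 3 passed without 1 h (adjusted p of 0.0997 for *bmp7.2*, 0.114 for *admp* and 0.0935 for *chrd*).

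Genes that carry or respond to the ion gradient were taken as a group. The entry named *kcnh6* (gene26736), after the voltage-gated K+ channel that the study examined, was below the abundance minimum and was not tested. It had 0.23, 0.43 and 0.31 in high K+, against 0.13, 0.05 and 0.15 in control. The study states that the gene was wrongly named *kcnh2* in another gene model, and it detected the transcripts in embryos by in situ hybridization. Whether this entry is that gene was not examined. Of 71 K+ channel and ion pump genes listed, 27 were tested. Among these, 7 passed as higher (25.9%) and 3 as lower (11.1%), beside 13.5% and 14.3% of all genes. The median relative difference of the 27 was 0.23, and at the spike-in level it was 0.00. None passed without 1 h.

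*atp6v0a1* (gene3148), a subunit of the proton pump of intracellular membranes, had 122, 187 and 140 in high K+, against 80.2, 60.7 and 66.9 in control. The conditions did not overlap (relative difference 0.90 ± 0.19, adjusted p = 0.0134, and 0.0852 without 1 h). *atp1b1* (gene2921), a subunit of the Na+/K+ pump, passed as lower, with 49.8, 27.6 and 59.8 in high K+, against 58.1, 80.5 and 58.0 in control (relative difference -0.75 ± 0.25, adjusted p = 0.0474), and the values overlapped.

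The K+ channel genes *kcnq1* (gene39) and *kcnk5* (gene21058) passed as higher, with relative differences of 0.60 ± 0.16 and 0.59 ± 0.15. *kcnq1* had 100, 111 and 94.0 in high K+, against 68.3, 59.2 and 48.9 in control, without overlap, whereas *kcnk5* had 177, 216 and 99.1 in high K+, against 133, 98.1 and 56.7 in control, and overlapped. *trpm7* (gene27359), a cation channel with a kinase domain, passed as lower, with 60.0, 31.0 and 39.3 in high K+, against 94.0, 83.0 and 36.2 in control. Its conditions met at 1.5 h.

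In the calcium signaling list 7 of 43 tested genes passed as higher (16.3%) and 3 as lower (6.98%), beside 13.5% and 14.3% of all genes, with a median relative difference of 0.02 and a spike-in-scaled median of -0.21. *cacna1c* (gene30218), the pore of the L-type voltage-gated calcium channel, had 4.92, 8.02 and 5.64 in high K+, against 3.82, 2.79 and 2.84 in control. No high K+ value was below a control value (relative difference 0.59 ± 0.17, adjusted p = 0.0274, and 0.164 without 1 h). *itpr2*, an IP3-gated calcium release channel, and *atp2a3*, a calcium pump of the endoplasmic reticulum, were higher by 0.83 and 0.66. Without 1 h, none of the calcium list passed.

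*creb1* (gene29633), a transcription factor activated through calcium and cyclic AMP, was among the lower genes. It had 62.3, 46.9 and 57.3 in high K+, against 137, 144 and 56.9 in control, so that the conditions differed at 0.5 and 1 h and met at 1.5 h. The relative difference was -1.096 ± 0.22 (adjusted p = 0.0122, and 0.0926 without 1 h). Its coactivator gene *crtc1* and the kinase gene *camk2d* were also lower, with relative differences of -0.95 and -0.71. Other factors that bind the same or neighbouring motifs did not pass. The adjusted p was 0.648 for *crem*, 0.791 for *atf1* and 0.0535 for *ets1*, whose relative difference was -0.41 ± 0.14.

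**Figure D3:**
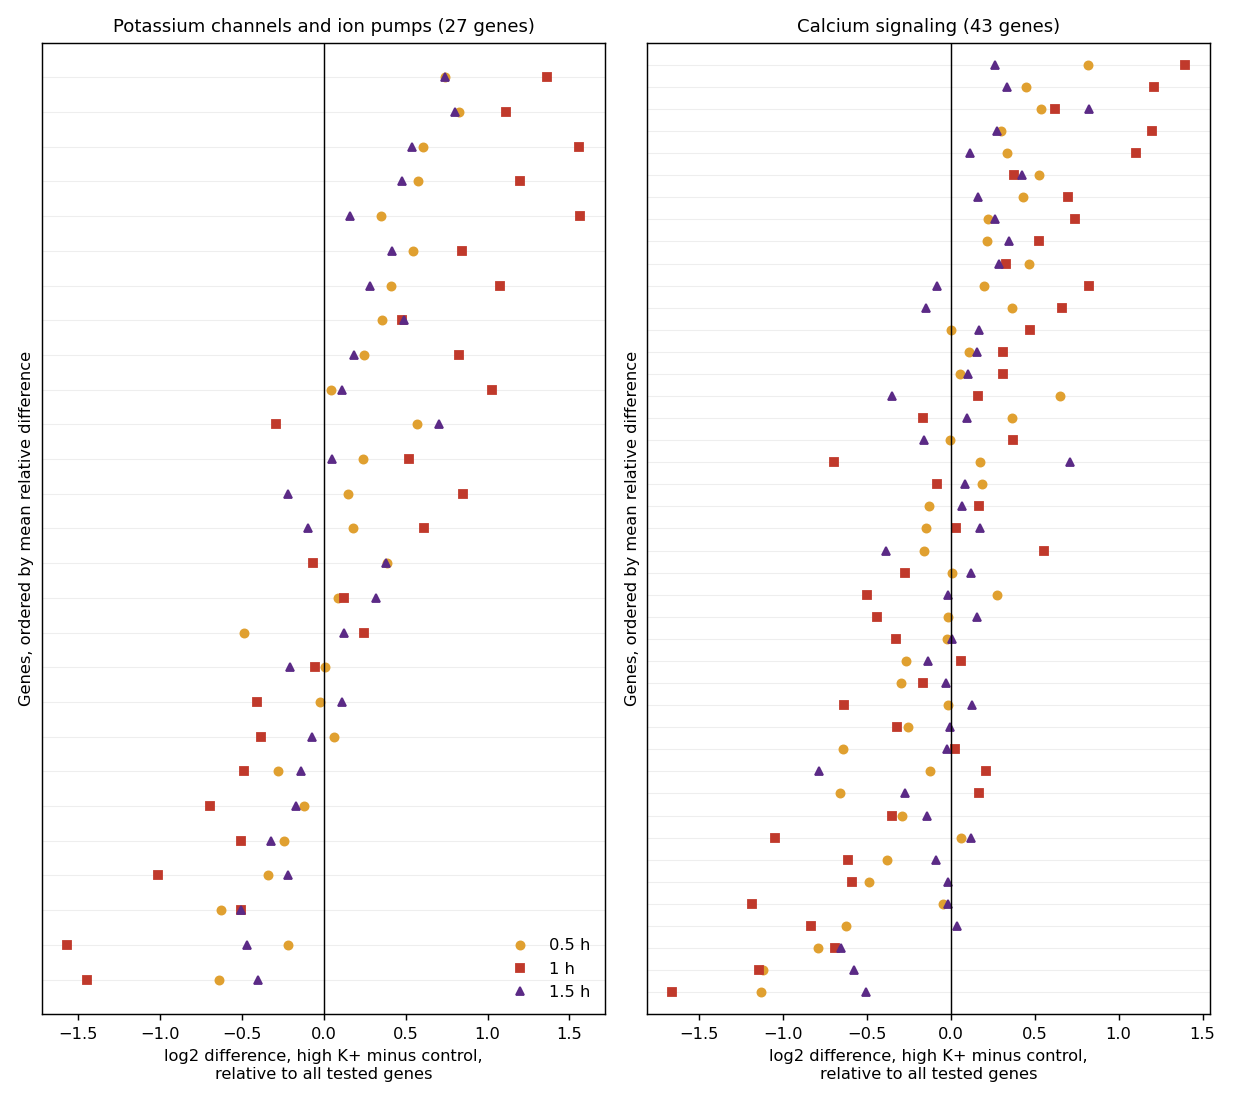
Relative log2 difference, high K+ minus control (horizontal axis), of each tested gene of the K+ channel and ion pump list (27 genes) and the calcium signaling list (43 genes), with genes ordered by their mean relative difference (vertical axis) and 1 point for each gene at 0.5, 1 and 1.5 h. The medians over genes of the K+ channel and ion pump list were 0.15, 0.24 and 0.11 and those of the calcium list 0.00, 0.06 and 0.07, and the points spread most at 1 h.

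Immediate early genes, which many cells switch on within minutes of calcium entry, were given as a list. Of 38 tested, 5 passed as higher (13.2%) and 10 as lower (26.3%), beside 13.5% and 14.3% of all genes, with a median relative difference of -0.07 and a spike-in-scaled median of -0.30. *fos* (gene4390) had 80.8, 61.3 and 39.4 in high K+, against 93.5, 58.9 and 30.4 in control (adjusted p = 0.615). *jun* (gene725) had 4.52, 6.96 and 4.95 in high K+, against 4.22, 6.88 and 5.96 in control (adjusted p = 0.41), and *atf3* (gene27962) had 2.08, 3.299 and 7.21 in high K+, against 1.40, 3.69 and 4.97 in control (adjusted p = 0.894). The conditions overlapped in all 3 genes. *egr1* was below the abundance minimum, at 0.78 to 1.28 in high K+ and 0.87 to 1.096 in control. Among those that passed, *dusp5* (0.87) and the calcineurin regulator *rcan1* (0.86) were higher, while *irf1* (-1.09), *btg2* (-0.91), *klf4* (-0.70) and *myc* (-0.45) were lower. In this list *cyr61* and *ier5l* alone passed without 1 h, both as lower (5.26%, beside 0.441% of all genes).

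The mTOR list had 16 of 59 tested genes higher (27.1%) and 10 lower (16.9%), beside 13.5% and 14.3% of all genes, with a median relative difference of 0.19 and a spike-in-scaled median of -0.04. The genes encode parts of both mTOR complexes and their regulators. *stk11* (gene8173), LKB1, the kinase that activates AMPK, had 122, 181 and 144 in high K+, against 73.7, 69.1 and 71.3 in control. Every high K+ value was above every control value (relative difference 0.84 ± 0.15, adjusted p = 0.0103, and 0.0595 without 1 h). *prkaa1* (gene6220), the AMPK catalytic subunit, had 733, 1061 and 925 in high K+, against 538, 423 and 445 in control, without overlap (adjusted p = 0.0187).

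*rictor* (gene33187), the defining subunit of mTORC2, had 36.6, 42.1 and 28.3 in high K+, against 28.1, 20.0 and 13.8 in control (relative difference 0.61 ± 0.16, adjusted p = 0.0234, and 0.165 without 1 h). *mtor* (gene31684) itself had 49.9, 33.6 and 44.7 in high K+, against 40.7, 36.8 and 25.7 in control and did not pass (adjusted p = 0.622). Further members higher were *rptor* (0.49), *mlst8* (0.58), *depdc5* (0.58) and *lamtor1* (0.57), and members lower were *slc38a9* (-0.89), *pdpk1* (-0.66) and *rps6kb1* (-0.41). No gene of the list passed without 1 h.

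Among regulators of the cell cycle at the mid-blastula transition, 13 of 52 passed as higher and 7 as lower (median relative difference 0.06, spike-in-scaled -0.17). Their shares were 25% and 13.5%, beside 13.5% and 14.3% of all genes. *cdc25a* (gene8091), the phosphatase that drives the rapid cleavage divisions, had 1233, 1750 and 1066 in high K+, against 884, 629.5 and 510 in control. The conditions did not overlap, and the relative difference was 0.82 ± 0.20 (adjusted p = 0.0176, and 0.126 without 1 h). The checkpoint kinase gene *chek1* did not pass (adjusted p = 0.513), nor did the cyclin genes *ccna1* (0.828) and *ccna2* (0.279). The kinase gene *wee1* was not analysed here.

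Of 48 tested DNA replication genes, 6 passed as higher (12.5%) and 12 as lower (25%), beside 13.5% and 14.3% of all genes, with a median relative difference of -0.22 and a spike-in-scaled median of -0.45. As deposited, the median difference was -0.03 at matched times and 0.24 against control samples 30 min later. Over all tested genes these medians were 0.20 and 0.26, so the later value of the list lay close to that of all genes. *mcm10* (gene7864), needed to start replication forks, had 56.2, 31.8 and 25.8 in high K+, against 118, 121 and 29.7 in control. It was lower in high K+ at each time, with overlap (relative difference -1.24 ± 0.24, adjusted p = 0.0115, and 0.0828 without 1 h). *orc2*, of the origin recognition complex, and *ticrr* were also lower, with relative differences of -1.04 and -0.84. The helicase subunits did not move together. Of the 2 entries named *mcm3*, gene19482 had a relative difference of -0.66 and gene3896 one of 0.72, while *mcm7* (0.68) was higher and *mcm4* (-0.72) lower. Neither the cell cycle list nor the replication list had a gene that passed without 1 h.

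Gene families gave the widest contrast between splicing factors and zinc finger genes. Among snRNP and SR proteins 14 of 29 passed as higher and 1 as lower, and 20 lay above the median at all 3 times. Over all tested genes 13.5% were higher, 14.3% lower and 29.3% above the median at all 3 times. The family's median relative difference was 0.45, and at the spike-in level it was still positive, 0.21. At 0 h, in the pair not compared, the median relative difference was already 0.26, against 0.00 over all tested genes. Without the 1 h pair the median was 0.38, although only *srsf4* then passed (3.45%, beside 0.354% of all genes). Other members higher were *srsf1* (0.95), *snrpg* (0.90), *srsf6* (0.84), *srsf5* (0.83) and *srsf7* (0.81), and the lower one was *srsf11* (-0.74).

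Zinc finger genes with a znf symbol had 6 of 121 higher (4.96%) and 38 lower (31.4%), beside 13.5% and 14.3% of all genes. Their median relative difference was -0.26 and the spike-in-scaled median -0.49. At 0 h the median relative difference was -0.10. Of the 121, 62 lay below the median at all 3 times (51.2%, against 28.8% of all genes). The median was -0.24 without 1 h, when 2 passed as lower (1.65%, beside 0.441% of all genes). One of them, *znf277* (gene20474), had 14.4, 11.5 and 17.2 in high K+, against 34.8, 38.4 and 21.0 in control, without overlap (relative difference -1.24 ± 0.18, adjusted p = 0.0079, and 0.0466 without 1 h). Solute carriers had 35 of 169 higher and 10 lower (median 0.17, spike-in-scaled -0.06), with 2 higher (1.18%) and 1 lower (0.592%) without 1 h. Cytosolic ribosomal proteins, which assemble with rRNA into ribosomes, had 4 of 75 higher and 2 lower (median 0.16, spike-in-scaled -0.07). The median of the ribosomal proteins rested on 1 h, where it was 0.50, and was 0.00 without it, when none passed. At 0 h it was 0.29.

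In the lists and families that follow, 13.5% higher and 14.3% lower is the share over all genes, and without the 1 h pair no gene passed, apart from 1 osmotic response gene, 1 histone gene and 1 RNA helicase gene that were lower and *eif4e3* among the initiation factors. Without that pair 0.354% of all genes were higher and 0.441% lower. Of the remaining signaling lists, that of Wnt had 10 of 43 genes higher and 2 lower (median 0.26, spike-in-scaled 0.03) and that of FGF 8 of 32 higher and 4 lower (median 0.13, spike-in-scaled -0.10). The Notch list had 3 of 24 on either side (median 0.06, spike-in-scaled -0.18). Without 1 h the medians were 0.08 for Wnt, 0.03 for FGF and -0.08 for Notch. Ectoderm and epidermis genes had 5 of 19 higher and 1 lower (median 0.14, spike-in-scaled -0.09), but their median as deposited was -0.19 against control samples 30 min later and 0.33 at matched times. Over all tested genes these medians were 0.26 and 0.20. At 0 h the median relative difference of the ectoderm list was 0.32. The lists of stress responses had negative medians under both scalings, but not as deposited (0.09 for apoptosis, 0.05 for heat shock, 0.004 for the osmotic list). The apoptosis median rested on 1 h, where it was -0.52, and was -0.002 without it. Without 1 h the heat shock median was -0.09 and the osmotic one -0.14. Apoptosis and p53 genes had 8 of 30 higher and 2 lower (median -0.10, spike-in-scaled -0.33), heat shock and unfolded protein response genes 4 of 39 higher and 8 lower (median -0.14, spike-in-scaled -0.37), and genes of the osmotic and volume response 0 of 14 higher and 2 lower (median -0.19, spike-in-scaled -0.42). The wider list of follicle, blood and testis genes had 3 tested genes, of which *ptprc* and *odf2* were lower, and of 3 tested markers of differentiated tissue none passed.

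The spike-in-scaled median was negative in the other families described here except the nucleoporins. Proteasome subunits had 9 of 39 higher and 4 lower (median 0.05), aminoacyl-tRNA synthetases 8 of 35 higher and 2 lower (median 0.22), translation initiation factors 7 of 49 higher and 2 lower (median 0.06) and nucleoporins 3 of 19 higher and 2 lower (median 0.32, spike-in-scaled 0.08). The nucleoporin median rested on 1 h and was -0.04 without it. The respiratory chain and ATP synthase had 6 of 81 higher and 3 lower (median 0.12), and histone lysine demethylases and methyltransferases 5 of 33 higher and 3 lower (median 0.20). At 0 h these medians were 0.21 and -0.17. Without 1 h the median of the demethylases and methyltransferases was 0.04 and that of the aminoacyl-tRNA synthetases 0.03. Histones had 0 of 29 higher and 4 lower (median -0.17), and kinesins 4 of 30 higher and 7 lower (median -0.17). Mitochondrial ribosomal proteins had 7 of 72 higher and 10 lower (median -0.01), RNA helicases 9 of 47 higher and 11 lower (median -0.01) and ubiquitin ligases 21 of 124 higher and 24 lower (median 0.05). Cadherins had 1 of 11 on either side.

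Genes were also classed by their control course outside the compared samples, from 0 h to 2 to 3 h. Of 814 zygotic genes, which increased at least 4-fold, 134 were higher (16.5%) and 62 lower (7.62%), beside 13.5% and 14.3% of all genes (median relative difference 0.15, spike-in-scaled -0.08). Without 1 h, 11 were higher (1.35%) and 2 lower (0.246%), beside 0.354% and 0.441% of all genes. Against control samples 30 min later their median difference as deposited was -0.50 instead of 0.34. The class was defined by an increase in control, so a later control lowers the difference by construction. Of 376 cleared genes 45 were higher and 33 lower (2 and 3 without 1 h), and of 6938 steady genes 913 were higher and 1008 lower (24 and 26 without 1 h).

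**Figure D4:**
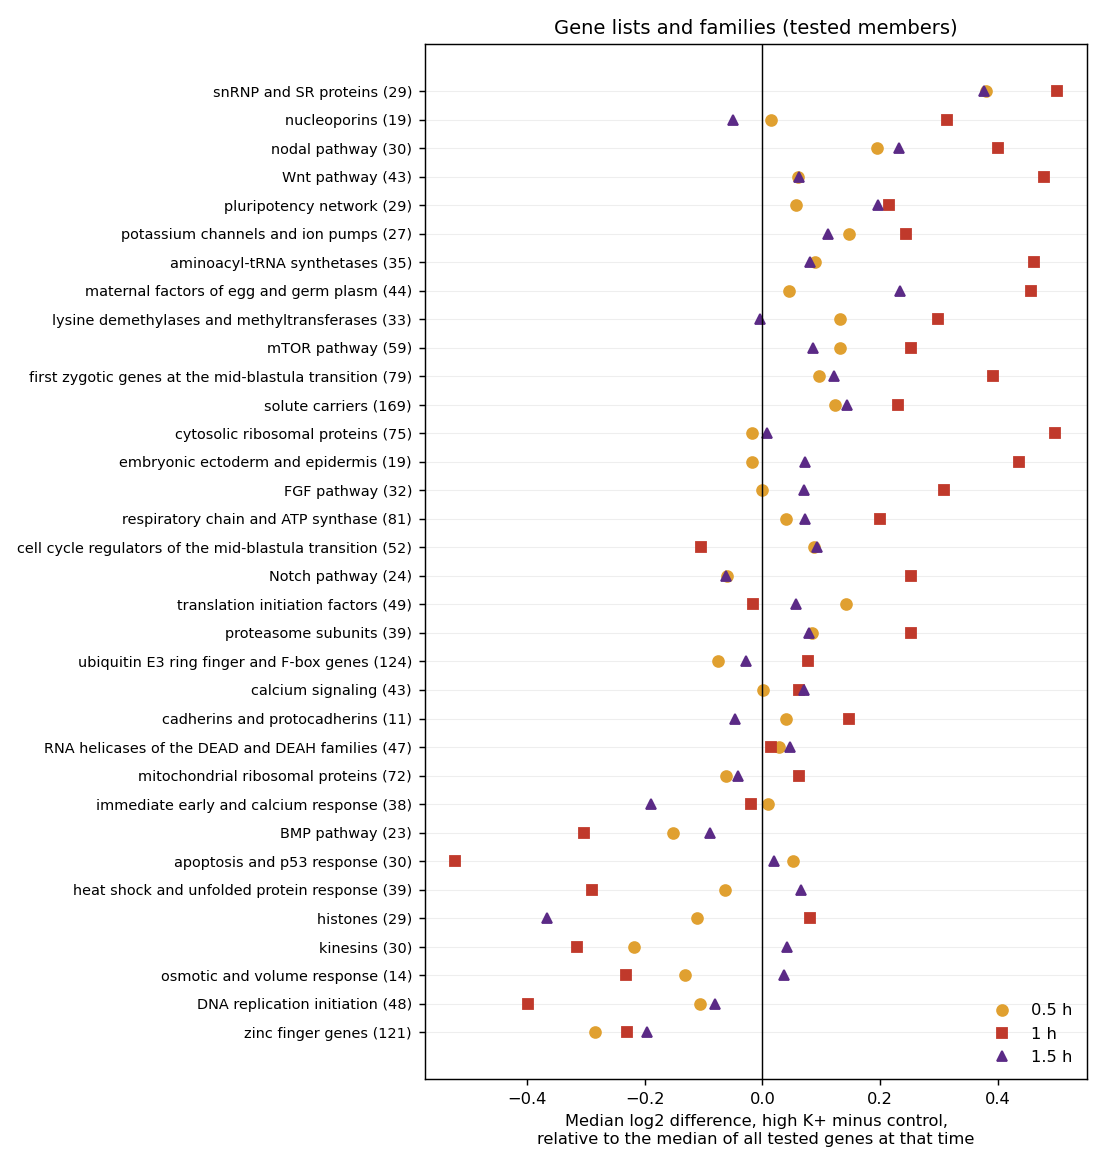
Median over tested genes of the relative log2 difference, high K+ minus control (horizontal axis), for gene lists and families with at least 10 tested genes (vertical axis, with their tested members), with separate points for 0.5, 1 and 1.5 h. The snRNP and SR proteins were positive at each time (0.38, 0.50 and 0.38) and the zinc finger genes negative (-0.28, -0.23 and -0.20).

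A brief increase was seen in control embryos. In the control course 715 tested genes were at least 2-fold above their 0 h value at 0.5 and 1 h and back within 1.5-fold of it at 1.5 h. In the high K+ course 30 genes did so, and 1 gene did so in both. Over the 715 genes the median change from 0 h in high K+ was 0.56 at 0.5 h, 0.02 at 1 h and 0.38 at 1.5 h. In control it was 1.19, 1.19 and 0.28. Over all tested genes the median change from 0 h was 0.37, 0.32 and -0.04 in control and 0.31, 0.31 and 0.46 in high K+. The changes were not scaled to these medians, so shifts of whole samples are part of them. The genes were chosen on these control samples, so the values are a description. They made up 19.3% of the genes called lower, 0.107% of those called higher and 5.17% of all tested. The control samples of 0.5 and 1 h also enter the compared differences, so these unequal shares arise in part by construction. With the 715 genes left out, 1867 genes were higher and 1593 lower in the median-ratio test. *creb1* shows this form in control, with 59.8 at 0 h, 137 and 144 at 0.5 and 1 h and 56.9 at 1.5 h. *mcm10* in control stood at 62.6 at 0 h, 118 and 121 at 0.5 and 1 h and 29.7 at 1.5 h. It did not meet the definition, being less than 2-fold above its 0 h value at 0.5 h and well below it at 1.5 h.

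**Figure D5:**
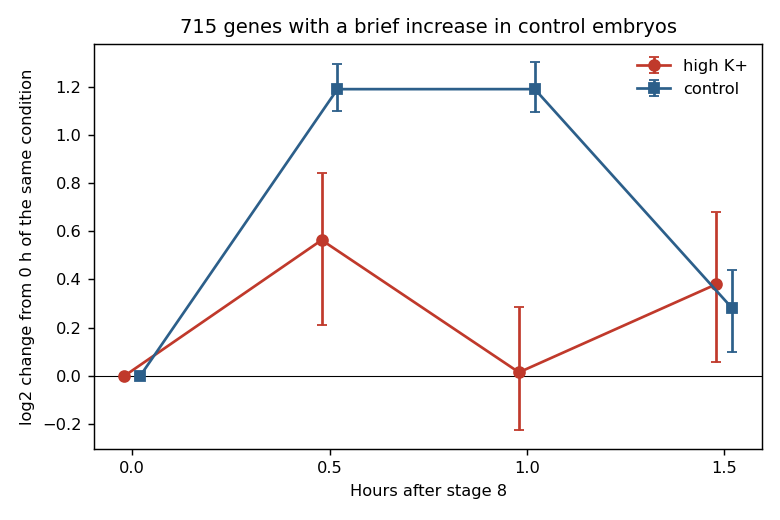
Median log2 change from 0 h (vertical axis) of the 715 genes with a brief increase in control, against hours after stage 8 (horizontal axis), in high K+ and in control, with bars from the lower to the upper quartile over genes. In high K+ the medians were 0.56, 0.02 and 0.38, against 1.19, 1.19 and 0.28 in control, by which the genes were chosen.

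The conditions already differed at 0 h. Of the genes called higher in the median-ratio test, 74.3% were higher in high K+ at 0 h as well, compared with 50% of all tested genes, and their median difference there was 0.17. Of the genes called lower, 53.3% were lower at 0 h, against 47% of all. No replicate exists at 0 h, so these differences were not tested. Genes with large ones are *ventx1.2*, with 2.70 in high K+ against 0.14 in control, and *pou5f3.1*, with 3.27 in high K+ against 0.43 in control.

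The differences of the blastula were also set against those of later stages. Of 14481 genes tested over the 4 windows, 1 differed between 0.5 to 1.5 h and 2 to 3 h (0.00691%), and 2 between 0.5 to 1.5 h and 5 to 6 h (0.0138%). At an unadjusted p under 0.05 the counts were 435 (3%) and 1241 (8.57%). *LOC108645374* (gene19451) was listed at 0 in the 3 high K+ samples, against 15.4, 19.1 and 15.6 in the control samples of the blastula, and differed from both later windows by -4.14 (adjusted p = 6.85e-07). Its mean difference was 0.00 in each later window, so this contrast is the early difference alone, of an unnamed entry at 0 in 1 condition. *LOC100487636* (gene534) had a mean difference of 0.68 at 0.5 to 1.5 h and of -2.66 at 5 to 6 h (adjusted p = 0.0307). The genes called higher in the median-ratio test had a median difference, as deposited, of 0.84 in the blastula, 0.86 at 2 to 3 h, 0.26 at 3.5 to 4.5 h and 0.45 at 5 to 6 h. Among those called lower it was -0.53, -0.46, -0.41 and -0.14 in the same windows. Over all tested genes it was 0.20, 0.17, -0.09 and 0.12. Both sets were chosen on the blastula samples, so their blastula values are larger in size by construction. The change towards later windows is therefore only a description.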

How the data were processed

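RNA from 10 whole embryos was sequenced in each sample. The authors aligned stranded paired-end reads to the Xt9.1 genome with spike-in sequences using STAR, quantified isoforms as TPM with RSEM, and corrected them for dinucleotide content with a model fitted to the spike-in RNAs separately in each condition. The authors stated that AT-rich transcripts were lost to a batch-dependent degree, and that this effect varied between control and high K+ samples. Its loss thus went with the compared conditions. What part of any difference remains from it after correction was not tested. Per gene, the deposited signal is the sum of these corrected isoform values. They were not rescaled, and depth is unknown.

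Differences of log2(abundance + 1) between same-time samples were tested with limma 3.58.1 in R 4.3.3 with the time point as a block, for genes with a mean of at least 1, with Benjamini-Hochberg adjustment at 0.05. The 12-time-point test pooled the spread within 4 windows. The spike-in level is the median over 43 RNAs of the log2 value, with each RNA centred on its mean over all samples. The limma scripts were checked on simulated data. Tables used Python 3.11.15 and pandas 2.3.3, and figures matplotlib 3.10.9.

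Named genes were the 12 highest and 12 lowest called genes with a symbol and 1 direction, up to 3 called genes of each list, and 35 fixed genes. Too few were called, so both sets of 12 were filled with genes that did not pass. The members, the 20 lists and the 17 families were chosen with earlier results of these data known. Alternatives changed the scaling, pseudocount, filter, block, samples in the fit and time matching. The results of some further genes and of 1 family are not reported here. Sequences and genome coordinates were not used here.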

Additional observations from a re-analysis of the deposited data

Results flagged for a closer look

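A few genes that the rule for named genes gave differed at 0 h, in the pair of samples that the comparison did not use. At 0 h the log2 difference, high K+ minus control, was 1.16 for *eif4e3*, 1.09 for *grip2*, 1.58 for *pou5f3.1*, 1.70 for *ventx1.2* and -2.65 for *rab5c*. *grip2*, a localized RNA of the germ plasm, had 50.5 in high K+ against 23.1 in control at 0 h, and *rab5c*, a GTPase of early endosomes, had 5.92 in high K+ against 42.5 in control. At 0.5 to 1.5 h their mean differences were 1.45 for *grip2* and -1.09 for *rab5c*, and neither passed the 6-sample test. All 5 differences had the direction that the gene had at 0.5 to 1.5 h. No replicate exists for 0 h.

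Other genes changed direction by 5 to 6 h, at every time point of both windows. *p2ry10*, a receptor for lipid mediators, was lower in high K+ at 0.5 to 1.5 h, with a mean difference of -1.12, and its mean difference was 0.19 at 5 to 6 h. *nodal6* had a mean difference of 0.51 at 0.5 to 1.5 h and of -0.17 at 5 to 6 h. The adjusted p of the difference between windows was 0.535 for *p2ry10* and 0.603 for *nodal6*, so neither passed.

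The early difference of *LOC108645374* differed from that at 2 to 3 h and from that at 5 to 6 h by -4.14, and that of *LOC100487636* differed from its 5 to 6 h value by 3.33. Both passed the test of the difference. For *LOC108645374* the mean difference was 0.00 at 2 to 3 h and at 5 to 6 h, and its early high K+ values were all 0.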

How the results depend on the processing

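The counts of genes called depended on almost every setting, and the 6-sample test called 138 genes higher and 87 lower. Given as higher and lower, the counts were 4 and 3 with each pair at a median ratio of 1, 3 and 3 at the spike-in level, 284 and 104 with a pseudocount of 0.1, 12 and 4 with a pseudocount of 10, 1 and 1 without a filter, 88 and 48 with a mean of at least 10, 0 and 0 with the filter of the whole series (2430 and 343 at an unadjusted p under 0.05) and 454 and 145 with a spread that follows abundance. Without a replicate block they were 15 and 5. Same-numbered samples had correlations of deviations of 0.43, -0.09 and 0.45, so the pairing rests on the time label. With the control 30 min earlier they were 21 and 2, and with the control 30 min later 2047 and 282. At a median ratio of 1 these became 12 and 3, and 1467 and 1179. The 12-time-point test gave 2467 and 323 as deposited, 1869 and 1974 at a median ratio of 1, and 9 and 11 at the spike-in level. Leaving out 1 time point gave 2 to 122 higher and 1 to 83 lower in the 6-sample test, fewest without 1.5 h. At a median ratio of 1 it gave 102 and 117 without 0.5 h, 0 and 0 (1782 and 1713 at an unadjusted p under 0.05) without 1 h, and 43 and 31 without 1.5 h. In the 12-time-point test leaving out 0.5, 1 or 1.5 h gave 3117, 28 or 889 higher and 134, 6 or 1060 lower as deposited, and 1245, 49 or 1902 higher and 1121, 61 or 2099 lower at a median ratio of 1. The cause was not tested.

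Against 2 to 3 h, 1 gene differed, but 3 with a pseudocount of 0.1, 0 with a mean of at least 10 (223 at an unadjusted p under 0.05), 2 without the block and 2 to 5 without 1 time point. Against 5 to 6 h, 2 genes differed, but 4 at the spike-in level, 6 and 1 with pseudocounts of 0.1 and 10, and 1 to 3 without 1 time point. Of 41 lists, families and classes, 33 had a median of the other sign at the spike-in level, 11 at a median ratio of 1 and 9 with the control 30 min later. Of 57 named genes, 12, 2 and 12 had the other sign under these settings. With the control 30 min later the mean difference was -0.47 for *pou5f3.1*, -0.29 for *ventx1.2*, -0.26 for *mix1* and -0.36 for *sox17a*. As deposited, no named gene called in the 6-sample test turned its sign when 1 time point was left out, but *esr-5* had a relative difference of -0.04 without 1 h. Depth is unknown, so its effect was not assessed.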
